A study of Mus musculus with 9 samples.

Results

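Genes of skeletal muscle were followed library by library through total RNA of the mouse trigeminal ganglion (TG), the sensory ganglion of the face and jaw. The 10 genes were Acta1, Actn3, Ckm, Myh1, Myh2, Myh4, Tnnt3, Tnni2, Mb and Atp2a1, out of 21835 gene sums in the deposited mRNA table, and all 10 were among the 16110 gene sums that averaged at least 0.1 FPKM (fragment counts divided by transcript length and by library size), an average that the libraries with high muscle levels carry. They were chosen by their measured levels in these libraries, so their levels and their differences between groups are given as a description, with no test. The level of a gene is the sum of the FPKM of its transcripts, which is a level per length and can be compared between genes.

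The libraries came from wild-type (WT) male C57BL/6 mice, 8 weeks old, that received 10 µl of saline or of complete Freund's adjuvant (CFA, 5 mg/ml) in the temporomandibular joint (TMJ) on a single side. There were 3 groups of 3 libraries, and each library was a pool of TG punches, taken on a single side, from 3 mice. The Saline group (replicates 1 to 3) and the CFA3D group (replicates 1 to 3) are labelled day 3 and the CFA6D group (replicates 4 to 6) is labelled day 6. No saline library is labelled day 6, so day and treatment change together in CFA6D against Saline and cannot be told apart. A library therefore averages the tissue of several mice, and a difference between libraries of a group cannot be assigned to 1 mouse.

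Skeletal muscle fibres contract when myosin heavy chain motors pull on actin filaments within sarcomeres. The troponin complex on the thin filament makes that movement depend on calcium, which a calcium pump of the sarcoplasmic reticulum takes back up so that the fibre relaxes. Fast fibres carry their own forms of these proteins and draw on creatine kinase and glycolysis for rapid energy. The ganglion itself is made of sensory neurons with satellite glia and Schwann cells, lies at the skull base close to the pituitary, and is passed by the motor root that runs to the jaw muscles.

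The ganglion markers were present in every library. The 13 sensory neuron genes (such as Tubb3, Nefl and Prph) summed to 2096 to 3214 FPKM. Of the Schwann cell myelin genes, Pmp22 was at 600.1 to 1116 FPKM and Mbp at 403 to 749 FPKM. Depth, taken from the smallest steps of the values, was 30.1 M to 42.4 M read pairs a library, which made a single pair per kilobase equal to 0.0236 to 0.0332 FPKM. This estimates the read total by which the FPKM were divided, and the read totals that the study reported for sequencing were larger. Libraries stood apart in genes of other tissues, each in its own way. The 8 pituitary genes summed to 10701 FPKM in Saline 3, 1118 in CFA6D 4 and 411 in CFA6D 5, against 8.93 to 99.9 elsewhere. The 8 bone genes summed to 207 FPKM in CFA6D 6 and to 28.1 to 75.9 elsewhere.

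The 10 muscle genes were high in the library Saline 2, and then in CFA6D 6 and Saline 1. Their summed level was 49.0, 221 and 5.6 FPKM in Saline 1 to 3, 2.14, 3.18 and 12.3 FPKM in CFA3D 1 to 3, and 3.61, 2.0 and 89.8 FPKM in CFA6D 4 to 6. The levels varied widely within the Saline and CFA6D groups and less within CFA3D, and each group held at least 1 library with a summed level under 6 FPKM. Even where highest, the 10 genes made up 0.0965% of the FPKM of the mRNA table (Saline 2), and the smallest share was 0.000845% (CFA6D 5). In read pairs these levels came to about 16950 in Saline 2, 9341 in CFA6D 6, 3570 in Saline 1, 1082 in CFA3D 3, 525 in Saline 3 and 211 to 330 in each of the other libraries. In bulk RNA, fewer fibres and less RNA per fibre cannot be told apart.

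**Figure D1:**
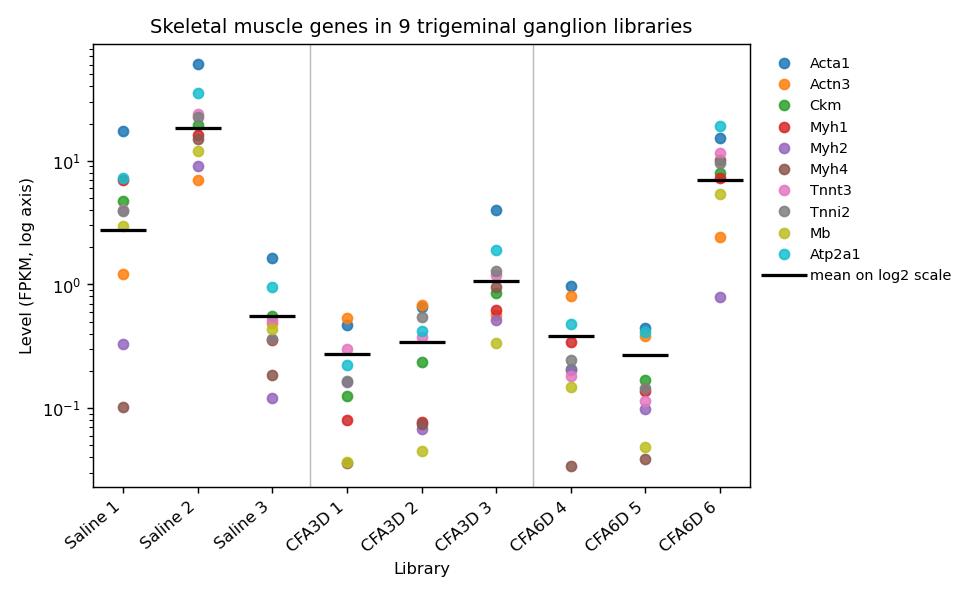
Level of each of the 10 skeletal muscle genes (FPKM, log axis) in the 9 libraries, with 1 coloured point per gene and a black bar at their mean on the log2(FPKM + 0.1) scale, returned to the linear scale. Saline 2 is highest for 10 of the 10 genes, CFA6D 6 is next for 9, and every group also holds libraries in which most of the genes lie under 1 FPKM.

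Acta1 encodes the actin of the skeletal muscle thin filament and was the most abundant of the 10 genes on average. Its level was 17.5, 60.5 and 1.63 FPKM in Saline 1 to 3, 0.474, 0.662 and 4.03 FPKM in CFA3D 1 to 3, and 0.976, 0.446 and 15.3 FPKM in CFA6D 4 to 6. Acta1 was the only member for which Saline 1 rather than CFA6D 6 held second place, and its 9 libraries spanned a 136-fold range. Actn3, the alpha-actinin of the Z-disc in fast fibres, stood at 1.21, 7.0 and 0.488 FPKM in Saline 1 to 3, 0.532, 0.683 and 0.571 FPKM in CFA3D 1 to 3, and 0.802, 0.381 and 2.44 FPKM in CFA6D 4 to 6. Actn3 had the smallest range of the 10 genes, 18.3-fold, and in CFA3D 3, where 9 of the members lay above CFA3D 1 and 2, it lay within the range of those libraries. Its shorter transcript (982 bases), whose level did not follow the rest, made up most of the Actn3 level in CFA6D 4, at 0.659 of 0.802 FPKM.

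The region before the Acta1 start is shown because it holds 1 match to the CArG box, the element bound by serum response factor, and 2 matches to the E-box (CANNTG), the element bound by myogenic helix-loop-helix factors. It lies at chr8:123894776-123895025 on the minus strand (RefSeq, GRCm38.p6), is written 5′ to 3′ over the 250 bases before the start, and carries the CArG and E-box matches in capitals.
Acta1: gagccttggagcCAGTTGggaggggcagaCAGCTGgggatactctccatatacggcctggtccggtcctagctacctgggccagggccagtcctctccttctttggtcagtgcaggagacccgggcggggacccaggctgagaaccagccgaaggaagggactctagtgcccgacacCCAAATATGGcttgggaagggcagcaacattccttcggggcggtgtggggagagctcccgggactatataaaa
Over both strands, 1.47% of 32817 RefSeq promoter windows of this length held a CArG match, 66.2% an E-box match, and 1.05% both. The RefSeq promoter table held 7 of the 10 members. Of these, a CArG match was found for Acta1 and Myh4, and an E-box match for Acta1, Ckm, Myh4, Mb and Atp2a1, which says only that these letters stand in these windows.

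Myh1, Myh2 and Myh4 encode the fast myosin heavy chains IIx, IIa and IIb, the motors that set how fast and how long a fibre can work. They lie side by side on the plus strand of chromosome 11 in GRCm38, Myh2 at chr11:67171027-67197517, Myh1 at chr11:67200052-67224575 and Myh4 at chr11:67238029-67260446. Their upstream regions are shown because 20 bases, in capitals, stand unchanged in all 3 of them. The windows are the 250 bases before each RefSeq start on the plus strand (GRCm38.p6), at chr11:67199852-67200101 for Myh1, chr11:67170777-67171026 for Myh2 and chr11:67237562-67237811 for Myh4.
Myh1: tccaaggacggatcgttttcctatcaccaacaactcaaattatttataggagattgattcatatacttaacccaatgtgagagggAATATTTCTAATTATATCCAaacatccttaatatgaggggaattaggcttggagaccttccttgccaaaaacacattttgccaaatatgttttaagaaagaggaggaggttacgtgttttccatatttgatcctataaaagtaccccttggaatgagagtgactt
Myh2: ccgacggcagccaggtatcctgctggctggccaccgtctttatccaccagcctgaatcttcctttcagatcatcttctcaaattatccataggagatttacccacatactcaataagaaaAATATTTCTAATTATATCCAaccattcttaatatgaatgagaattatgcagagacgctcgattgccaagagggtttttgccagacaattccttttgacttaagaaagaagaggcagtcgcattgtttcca
Myh4: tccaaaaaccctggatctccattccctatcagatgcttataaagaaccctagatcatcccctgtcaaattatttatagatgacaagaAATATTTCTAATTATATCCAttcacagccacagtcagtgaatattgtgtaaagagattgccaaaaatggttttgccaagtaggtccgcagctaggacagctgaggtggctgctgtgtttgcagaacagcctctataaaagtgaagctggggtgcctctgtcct
This run of 20 bases was found in 3 of the 32817 promoter windows, those of Myh1, Myh2 and Myh4. A match to the MEF2 box, the element bound by myocyte enhancer factors, was found for Myh1 and Myh4, against 2.92% of all windows, and the letters TATAAA were found for Myh1, Myh4 and Acta1, against 12.4%.

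The 3 myosins did not keep one ratio across the libraries in which muscle genes were high. Myh1 stood at 7.0, 16.3 and 0.352 FPKM in Saline 1 to 3, 0.0809, 0.0768 and 0.617 FPKM in CFA3D 1 to 3, and 0.340, 0.138 and 7.27 FPKM in CFA6D 4 to 6. Its level in Saline 1 was close to that in CFA6D 6, and Saline 2 was 2.33 and 2.24 times these. Myh4 stood at 0.101, 15.0 and 0.186 FPKM in Saline 1 to 3, 0.0363, 0.0740 and 0.960 FPKM in CFA3D 1 to 3, and 0.0338, 0.0385 and 10.2 FPKM in CFA6D 4 to 6. Saline 1, which was among the top 3 libraries for 8 of the members, stood at rank 5 for Myh4, with about 18.9 read pairs against 2678 in Saline 2 and 2314 in CFA6D 6. Myh2 stood at 0.330, 9.11 and 0.121 FPKM in Saline 1 to 3, 0.163, 0.0674 and 0.518 FPKM in CFA3D 1 to 3, and 0.203, 0.0985 and 0.789 FPKM in CFA6D 4 to 6. Myh2 was therefore above 1 FPKM in Saline 2 alone, at 11.5 times its level in CFA6D 6.

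As shares of the summed FPKM of the 3 myosins, Saline 1 was 94.2% Myh1, 4.45% Myh2 and 1.36% Myh4. Saline 2 was 40.3% Myh1, 22.5% Myh2 and 37.2% Myh4, and CFA6D 6 was 39.9% Myh1, 4.33% Myh2 and 55.8% Myh4. These 3 libraries, which held the most reads of the 3 genes, thus differed in their myosin makeup. CFA3D 3 held 29.4% Myh1, 24.7% Myh2 and 45.8% Myh4 on 416 read pairs. The shares of the other 5 libraries rest on 53 to 142 read pairs over the 3 genes and are read no further.

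**Figure D2:**
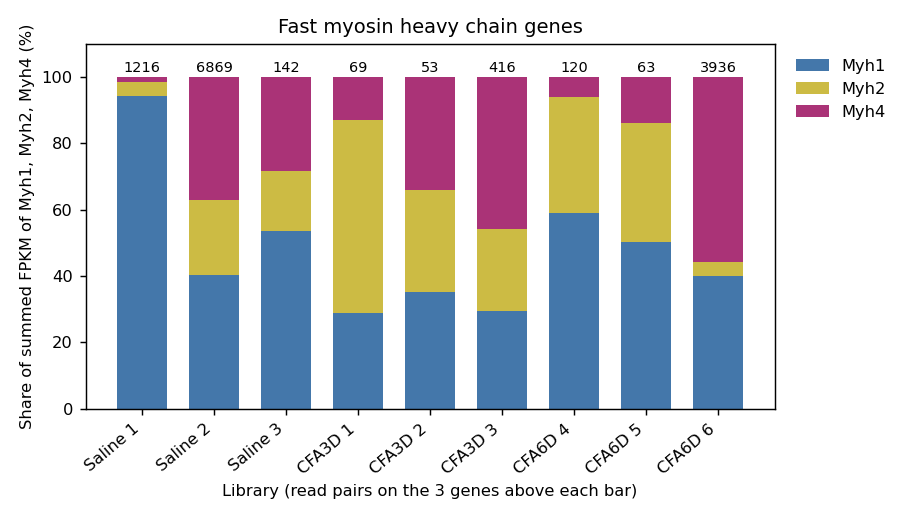
Share of the summed FPKM of Myh1, Myh2 and Myh4 taken by each gene (percent, stacked bars from 0 to 100) in the 9 libraries, with the number of read pairs on the 3 genes above each bar. Saline 1 is 94.2% Myh1, while Myh4 takes 37.2% in Saline 2 and 55.8% in CFA6D 6, and 5 bars rest on 142 read pairs or fewer.

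The split between the myosins depends on how reads of alike transcripts were shared out. The leading transcripts of Myh1 and Myh2 were identical at 90.8% of aligned bases, those of Myh1 and Myh4 at 90.2%, and those of Myh2 and Myh4 at 87.9%. Of all windows of 100 bases, 9.97% in Myh1, 9.28% in Myh2 and 3.92% in Myh4 stood unchanged in a transcript of another gene, most often another gene of the cluster, while for the other 7 members no such window was shared. Within genes, the deposited values moved between transcripts from library to library. The Myh4 transcript ENSMUST00000170942 held 14.9 FPKM in Saline 2 and 10.1 FPKM in CFA6D 6 and was listed at 0 in the other 7 libraries, where the low Myh4 levels were all on ENSMUST00000018632 (0.960 FPKM in CFA3D 3). The Myh2 transcript ENSMUST00000018641 held 8.78 FPKM in Saline 2, with 0 listed for the other 8 libraries, so the CFA6D 6 level of Myh2 was on other transcripts. The Myh1 transcript ENSMUST00000018637 was at 5.25, 10.9 and 5.65 FPKM in Saline 1, Saline 2 and CFA6D 6 and listed at 0 elsewhere.

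The other heavy chain genes of the cluster did not follow the library order of the members. Myh3 and Myh8, the embryonic and perinatal heavy chains, ranged over 0.0106 to 0.0619 FPKM and 0.373 to 0.962 FPKM over the 9 libraries, and stood at 0.0166 and 0.506 FPKM in Saline 2. Myh13, the extraocular heavy chain, ranged over 0.0664 to 0.281 FPKM. Its highest value was in Saline 2, followed by 0.260 FPKM in CFA6D 5, and it stood at 0.134 FPKM in CFA6D 6 and 0.0870 in Saline 1. Of the noncoding neighbours, Myhas is an antisense RNA that overlaps Myh1 and ends before Myh4. It was highest in 2 of the libraries with high muscle levels, at about 16.7 read pairs in CFA6D 6 and 6.9 in Saline 2. It held 1.3 read pairs in Saline 1, 2.9 in CFA6D 4 and 0 in the other 5. The antisense RNA 9430073C21Rik, which overlaps Myh2, was above 0 in Saline 2 (4.0 read pairs) and CFA6D 6 (0.5) alone. The study's methods name a stranded library kit and the labels a TruSeq kit that is not described as stranded, and whether the counting used strand is not given in the sources used here. The division of reads between Myhas and Myh1, and between 9430073C21Rik and Myh2, is therefore uncertain. Genes on the opposite strand also overlap Acta1, Ckm, Tnnt3, Mb and Atp2a1, and the same uncertainty holds for these members. The other members of the cluster, Mir6923, 2310065F04Rik and Gm26476, stayed at or under 16.6 read pairs. For 2310065F04Rik these were about 16.6 in Saline 2, 14.1 in CFA3D 1 and 13.6 in CFA6D 6.

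Tnnt3 and Tnni2 encode the fast forms of troponin T, which anchors the complex to tropomyosin, and troponin I, which holds contraction off at rest. Tnnt3 stood at 3.98, 23.9 and 0.518 FPKM in Saline 1 to 3, 0.304, 0.377 and 1.20 FPKM in CFA3D 1 to 3, and 0.183, 0.115 and 11.6 FPKM in CFA6D 4 to 6. Tnni2 stood at 3.90, 22.7 and 0.362 FPKM in Saline 1 to 3, 0.166, 0.542 and 1.28 FPKM in CFA3D 1 to 3, and 0.244, 0.145 and 9.66 FPKM in CFA6D 4 to 6. Both were highest in Saline 2, then CFA6D 6, then Saline 1, then CFA3D 3, and Saline 2 exceeded CFA6D 6 by 2.07 times for Tnnt3 and 2.35 times for Tnni2. Tnnt3 is known for its many splice forms, and 20 of its 27 transcripts in the table were above 0 in some library. Its leading transcript ENSMUST00000105949 was at 18.7 FPKM in Saline 2 and 7.83 FPKM in CFA6D 6 but was listed at 0 in Saline 1. In Saline 1 the Tnnt3 level was instead mostly on ENSMUST00000105955 (2.08 FPKM) and ENSMUST00000105944 (1.09 FPKM).

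Atp2a1 encodes SERCA1, the calcium pump of the sarcoplasmic reticulum in fast fibres. Its level was 7.29, 35.1 and 0.954 FPKM in Saline 1 to 3, 0.221, 0.417 and 1.89 FPKM in CFA3D 1 to 3, and 0.480, 0.415 and 19.2 FPKM in CFA6D 4 to 6. All of it was on 1 transcript, and Atp2a1 overtook Acta1 as the most abundant member in CFA6D 6. Ckm, the muscle creatine kinase that regenerates ATP from phosphocreatine, stood at 4.75, 19.3 and 0.553 FPKM in Saline 1 to 3, 0.125, 0.234 and 0.856 FPKM in CFA3D 1 to 3, and 0.206, 0.170 and 8.02 FPKM in CFA6D 4 to 6. Mb, the oxygen-binding myoglobin of oxidative fibres and heart, stood at 2.96, 12.0 and 0.440 FPKM in Saline 1 to 3, 0.0367, 0.0452 and 0.334 FPKM in CFA3D 1 to 3, and 0.147, 0.0481 and 5.38 FPKM in CFA6D 4 to 6. Mb rested on fewer than 3 read pairs in CFA3D 1, CFA3D 2 and CFA6D 5, so the order of those 3 libraries cannot be read. Mb was also the only member in which the 3 CFA3D libraries all lay below the 3 saline libraries.

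Taken gene by gene, the ratio of Saline 2 to CFA6D 6 was between 1.48 (Myh4) and 11.5 (Myh2), with a median of 2.29. The ratio of Saline 2 to Saline 1 ran from 2.33 (Myh1) to 149 (Myh4), with a median of 5.31. CFA3D 3 exceeded the mean of CFA3D 1 and 2 for 9 of the members, by a median of 5.34 times over the 10, and Actn3 was the exception at 0.939. Across the 9 libraries the SD of log2(FPKM + 0.1) was 1.25 (Actn3) to 2.73 (Myh4) for the members, with a median of 2.46, while the median over the 16110 gene sums tested was 0.199. These spreads describe the values that chose the members and carry no test.

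Many muscle genes outside the 10 members followed the same libraries, more often in the fast fibre, sarcomere, calcium release and energy lists than in the others. The 8 lists of other fibre, sarcomere, calcium, junction, energy and myogenic genes gave 85 other skeletal muscle genes, of which 73 averaged at least 0.1 FPKM. Saline 2 was the highest library for 50 of these 73 (68.5%), against 4.15% of all gene sums tested. Saline 2, CFA6D 6 and Saline 1 were the 3 highest libraries, in any order, for 32 of the 73 (43.8%), against 1.24% of all gene sums. By list, tested or not, that held for 5 of 8 fast fibre, 13 of 21 sarcomere, 7 of 13 calcium release and 5 of 14 energy genes. It held for 2 of 12 slow fibre genes, 1 of 6 junction genes and 0 of the developmental myosin and myogenic genes. The lists were drawn up with results of these data known, so the counts describe these libraries.

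Of the 8 other fast fibre genes, all were highest in Saline 2. Mylpf, the fast regulatory light chain, was at 17.0 FPKM in Saline 2, 15.2 in CFA6D 6 and 4.16 in Saline 1, and at 0.340 to 1.21 in the other libraries. Pvalb and Casq1, a calcium buffer and a calcium store protein, behaved otherwise, because every library held them at 26.3 to 47.9 FPKM and 4.91 to 7.29 FPKM. Pvalb is known also as a marker of large sensory neurons. Of the 21 scaffold genes of the sarcomere, 18 were highest in Saline 2. Ldb3 of the Z-disc (3.94 to 7.56 FPKM), Tpm2, the beta-tropomyosin (2.24 to 11.6 FPKM), and Ttn, the giant titin (0.277 to 13.4 FPKM), were the most abundant, and each had Saline 2 and CFA6D 6 on top. Of the 13 genes that couple excitation to calcium release, 12 were highest in Saline 2, but the most abundant, Srl (1.61 to 3.54 FPKM), Stac3 (0.940 to 3.22 FPKM) and Jph1 (1.14 to 1.92 FPKM), were present in every library.

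Of the 14 muscle energy genes, 9 were highest in Saline 2. Pfkm, the phosphofructokinase of glycolysis, was at 43.1 to 52.3 FPKM in all 9 libraries. Cox8b and Cox7a1, subunits of cytochrome oxidase in muscle, heart and brown fat, were at 49.9 and 19.8 FPKM in Saline 2, and Cox8b reached only 2.49 FPKM in CFA6D 6, which was high in the 10 members. The slow fibre list had 4 of 12 genes highest in Saline 2. Its most abundant genes were Myh7b (0.775 to 1.90 FPKM), Tnni1, the slow troponin I (0.543 to 1.18 FPKM), and Mybpc1, a myosin binding protein (0.165 to 2.96 FPKM), of which Mybpc1 was highest in Saline 2. Myh7, the slow heavy chain, stayed at or under 0.373 FPKM.

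Of the 6 genes of the neuromuscular junction, 1 was highest in Saline 2. Chrnb1 (1.55 to 2.57 FPKM), Musk (1.40 to 2.43 FPKM) and Chrne (0.134 to 0.446 FPKM), parts of the acetylcholine receptor and its clustering kinase, varied without Saline 2 on top. Chrne was nonetheless highest in CFA6D 6 (0.446 FPKM), Saline 2 (0.408) and Saline 1 (0.397), the libraries high in the members. The myogenic list of satellite cells was led by Cdh15 (0.806 to 1.60 FPKM), Chrdl2 (0.0413 to 0.249 FPKM) and Pax7 (0 to 0.361 FPKM), and 1 of its 8 genes, the regulator Myf6, was highest in Saline 2. Myf6 stood at 0.237 FPKM in Saline 2, 0.125 in CFA6D 6 and 0 to 0.0438 in the other libraries, which is the order of the members in the top 2. The other regulators Myod1 and Myf5 stayed at or under 0.0425 and 0.0316 FPKM. Loci of muscle microRNAs gave at most 3.84 read pairs, Mir133b, Mir206 and Mir208b were listed at 0 throughout, and 6 of the 7 loci sought were matched.

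**Figure D3:**
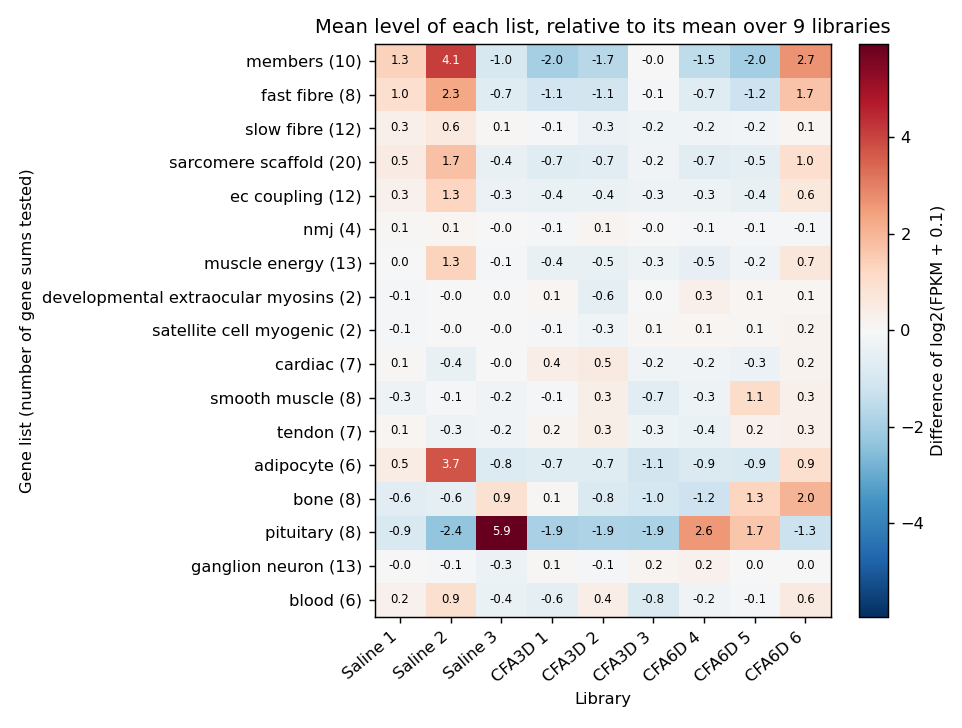
Mean of log2(FPKM + 0.1) over all genes of each list shown, tested or not, as the difference from the list's own mean over the 9 libraries (colour, log2 units). The number in parentheses counts only the gene sums of the list that were tested. Members and fast fibre genes are highest in Saline 2, CFA6D 6 and Saline 1, the adipocyte list is highest in Saline 2, the pituitary list in Saline 3, and the neuron list hardly differs between libraries.

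The 10 gene sums outside the members most like them, by Pearson's r with the mean member level over the 9 libraries, were Tnnc2 (r = 0.994), Myoz1, Myot, Ttn, Tcap, Nrap, Mybpc2, Mylk2, Xirp2 and Mylpf (r = 0.974), each of them a gene of the muscle lists. In all, 36 gene sums outside the members had r above 0.9, and 25 of these were in the muscle lists. Tnnc2, the fast troponin C that binds calcium beside Tnnt3 and Tnni2, stood at 1.99, 14.1 and 0.126 FPKM in Saline 1 to 3, 0.0336, 0.144 and 0.620 FPKM in CFA3D 1 to 3, and 0.106, 0.0235 and 7.02 FPKM in CFA6D 4 to 6. The 5 most opposed were Rtl4 (r = −0.944), Nfe2l1, Zfp287, Mtfmt and Cfap157 (r = −0.893), of which Nfe2l1, a transcription factor of the stress response, was at 17.1 to 31.8 FPKM. The points share library and depth, and 3 libraries carry most of the spread, so these values are a description of likeness.

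Markers of other tissues moved with some of the same libraries. The 8 adipocyte genes summed to 126 FPKM in Saline 2, 5.85 in CFA6D 6, 2.91 in Saline 1 and 0.301 to 0.883 in the other libraries, which is the order of the members in the top 3. Fabp4 (76.6 FPKM), Ucp1 (18.3 FPKM) and Cfd (14.4 FPKM), a fatty acid carrier, the uncoupler of brown fat and adipsin, led in Saline 2, while Lep was listed at 0 in all libraries. The 6 tested adipocyte genes each had Saline 2, CFA6D 6 and Saline 1 as the 3 highest libraries. The 6 blood genes, led by Hba-a1, Hbb-bs and Hba-a2, summed to 5790 FPKM in Saline 2 and to 1667 to 3863 FPKM elsewhere. Their part in the levels of the members was not tested. The bone list, led by Col1a1, Bglap and Bglap2, was highest in CFA6D 6, with 157.8 FPKM of Col1a1 against 52.4 FPKM in Saline 2. The pituitary list, led by Gh, Prl and Pomc, was lowest in Saline 2, which was highest in muscle.

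The lists of other contractile and connective tissues were flatter. The 9 cardiac genes summed to 5.56 to 12.2 FPKM and none was highest in Saline 2, with Nppb (1.56 to 4.58 FPKM), Myh6 (0.684 to 3.33 FPKM) and Tnni3 (0.816 to 1.72 FPKM) leading. Cardiac actin Actc1 was listed at 0 in Saline 2. The 8 smooth muscle genes, led by Smtn, Tagln and Mylk, summed to 51.1 to 105.5 FPKM, and the 8 tendon genes, led by Thbs4, Fmod and Scx, summed to 30.8 to 58.2 FPKM. In both lists no gene was highest in Saline 2.

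**Figure D4:**
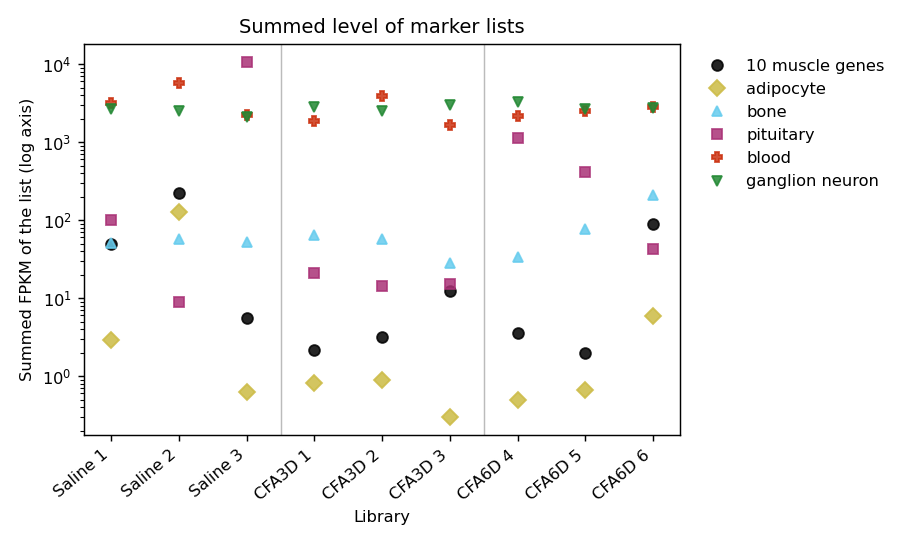
Summed FPKM (log axis) of the 10 muscle genes and of the adipocyte, bone, pituitary, blood and ganglion neuron lists in the 9 libraries. Muscle and adipocyte sums both peak in Saline 2 (221 and 126 FPKM), the pituitary sum peaks in Saline 3 (10701 FPKM), the bone sum in CFA6D 6 (207 FPKM), and the neuron sum stays between 2096 and 3214 FPKM.

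Between groups, the question is whether CFA in the joint moved the muscle genes in the ganglion. The mean of log2(FPKM + 0.1) over the members was 1.46, 4.2 and −0.83 in Saline 1 to 3, −1.86, −1.54 and 0.09 in CFA3D 1 to 3, and −1.37, −1.90 and 2.79 in CFA6D 4 to 6. CFA3D 3 and CFA6D 6 lay within the range of the saline libraries and the other 4 CFA libraries lay below it. The group means differed by −2.71 for CFA3D against Saline, −1.77 for CFA6D against Saline and 0.94 for CFA6D against CFA3D, while the pooled SD within groups was 2.17. The CFA6D differences were smaller than that SD, and the CFA3D difference from Saline was larger. That SD is the spread of single libraries and not the uncertainty of a difference of means, so the comparison is no test. Without Saline 2 the CFA3D difference was −1.42 and the CFA6D difference −0.47. Without Saline 3 the CFA6D difference was −2.99, without CFA6D 6 it was −3.25, without CFA6D 4 it was −1.16 and without CFA6D 5 it was −0.90. The difference of CFA6D from CFA3D turned to −0.54 without CFA6D 6, and was 0.56, 1.54, 1.55 and 1.81 without CFA3D 1, CFA3D 3, CFA6D 4 and CFA6D 5.

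**Figure D5:**
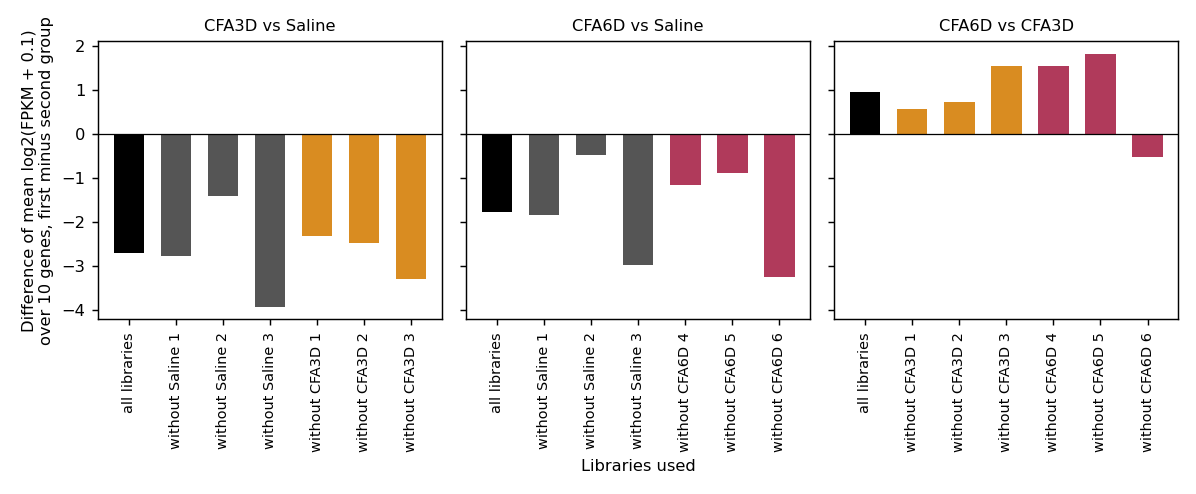
Difference of the mean log2(FPKM + 0.1) of the 10 muscle genes between groups, first minus second, with all libraries (black bar) and after leaving out each library of the groups compared in turn (bars coloured by the group of the library left out). The CFA3D difference runs from −3.93 to −1.42, the CFA6D difference from −3.25 to −0.47, and the difference of CFA6D from CFA3D changes sign without CFA6D 6 (−0.54).

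By gene, the mean of CFA3D lay below that of Saline for all 10 members, from −3.73 ± 1.42 (log2, SE, n = 3 against 3) for Mb and −3.72 ± 1.5 for Myh1 to −1.35 ± 0.85 for Actn3, with a median of −2.94 against 0.05 over all gene sums tested. In 1 of the 10, Mb, the libraries did not overlap with CFA3D lower, against 2.12% of all gene sums. This rests on few reads, about 13.3 read pairs in CFA3D 3 against 18.1 in Saline 3. The mean of CFA6D also lay below that of Saline for all 10, from −2.55 ± 1.5 for Acta1 to −0.73 ± 1.99 for Myh4, with a median of −1.96 against 0.03 over all gene sums, and none was without overlap, against 5.49% of all gene sums with CFA6D lower. The mean of CFA6D lay above that of CFA3D for all 10, from 0.33 ± 1.23 for Myh2 to 1.69 ± 1.5 for Myh1, with a median of 0.88 against −0.02, and none was without overlap, against 6.62% with CFA6D higher. The 3 comparisons share libraries, so that the high Saline 2 enters both differences from Saline. Without Saline 2 the Myh4 difference turned to 0.29 for CFA3D and 1.26 for CFA6D, and those of Actn3 and Myh2 turned to 0.24 and 0.29 for CFA6D. Without CFA6D 6 the difference of CFA6D from CFA3D was below 0 for 9 of the members, down to −1.35 for Tnnt3, and stayed at 0.19 for Myh1.

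The other 73 muscle genes were tested with limma and counted where the unadjusted p was under 0.05 and the log2 difference at least 1 in size. Their lists were drawn up with results of these data known, so these counts and p-values describe the libraries. Saline 2 was the highest library for 50 of the 73, so the genes are not separate evidence. In CFA3D against Saline, 0.341% of all 16110 gene sums were called in either direction. Of the 73 muscle genes, 7 were lower and 0 higher, a share of the list that stands beside 0.267% of all gene sums called lower and 0.0745% called higher. They were Myh7 (−1.02) and Myl2 (−1.37), slow and cardiac motor proteins, Myom2 (−1.48), Lmod2 (−1.28) and Des (−1.82), of the sarcomere and its filaments, Cacng1 (−1.24), of the calcium channel, and Cox8b (−3.28), with limma adjusted p = 0.997 for each. Myh7 and Myl2 were highest in Saline 3 (0.373 and 0.456 FPKM), a library low in the members. Myom2, Lmod2, Des, Cacng1 and Cox8b were highest in Saline 2. Myh7, Lmod2 and Cacng1 averaged 0.263, 0.263 and 0.286 FPKM in Saline and 0.0792, 0.0281 and 0.0486 FPKM in CFA3D, and each averaged under 0.1 FPKM over the 6 CFA libraries, so the filter at a mean of 0.1 FPKM was passed through the saline libraries, which favours a lower call. Of the 73, 64 lay below 0, with a median of −0.68. For 15, the CFA3D libraries all lay below the saline libraries, against 2.12% of all gene sums, and for 1 they all lay above, against 7.01%. Of the genes not called, Csrp3 and Trdn also averaged under 0.1 FPKM over the CFA libraries. They passed the filter through saline, at 1.62 and 0.934 FPKM in Saline 2. How far the counts of 64 and 15 depend on single libraries was not tested. The count of 7 depended on single libraries, being 1 without Saline 2, 27 without Saline 3, 2 without CFA3D 1 or CFA3D 2, 3 without CFA3D 3 and 16 without CFA6D 6.

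In CFA6D against Saline, 0.596% of all gene sums were called in either direction. Of the 73, 2 were lower, Myh7 (−1.21, limma adjusted p = 0.242) and Cox7a1 (−1.15, limma adjusted p = 0.421), and 0 were higher, beside 0.192% and 0.403% of all gene sums. The CFA6D libraries all lay below saline for 3 and above it for 1, beside 5.49% and 10.7% of all gene sums. The count was 1 without Saline 2, CFA3D 1, CFA3D 2 or CFA3D 3, 4 without Saline 1, 10 without Saline 3 and 18 without CFA6D 6. In CFA6D against CFA3D, where 0.782% of all gene sums were called in either direction, Neb, the nebulin of the thin filament, was higher (1.02, limma adjusted p = 0.648) and 0 of the 73 were lower, beside 0.639% and 0.143% of all gene sums, and the count was 0 to 2 when a library was left out. Myh7 averaged 0.0551 FPKM in CFA6D, so the same limit holds for it there. These genes were named because they made up counts of 7 or fewer, after their values were seen. By limma, 0 of the 16110 gene sums had an adjusted p under 0.05 in any of the 3 comparisons, while 717, 1782 and 1193 had an unadjusted p under 0.05.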

How the data were processed

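Total RNA of 9 TG libraries was read from FPKM values per transcript that the authors deposited in separate mRNA, lncRNA and noncoding RNA files. Per the study's methods, reads were trimmed with Trimmomatic and mapped to GRCm38, and expression was computed in CLC Genomics Workbench. The submitters' processing notes list mm8 and Bowtie 0.12.2, and the tool that gave the FPKM is not given in the sources used here. All per-sample columns were used.

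Transcripts were joined to GENCODE release M21 for mouse (101539 of 102122 in the mRNA table) and FPKM were added per gene. The worth of 1 read pair was estimated from the steps of low values in 4347 genes with 1 transcript, and was tested on simulated data. Read pairs are therefore estimates, and values below 1 read pair occur. Groups were compared with limma 3.58.1 (trend) in R 4.3.3 on log2(FPKM + 0.1), a scale that understates the change of low genes, over 16110 gene sums averaging at least 0.1 FPKM and with all 9 libraries in 1 fit. Called genes had an unadjusted p under 0.05, the cutoff of the methods, and a log2 difference of at least 1, and Benjamini-Hochberg adjusted values are given. The members were part of this fit and of the counts over all gene sums, but since they were chosen by their levels no p is given for them. The p-values measure the spread between pools. Promoters were RefSeq windows (GRCm38.p6), cut to the 250 bases before the start.

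The members and the gene lists were chosen with earlier results of these data known. Named genes were the 10 members, the 3 most abundant genes of each list, the 10 gene sums most like the members and the 5 most opposed, and the genes of the myosin cluster. Myh7, Myf6, Myod1, Myf5, Actc1 and Lep were named after their values were seen. A named item is not reported here. Alternatives were the pseudocount, the filter on low values, the scaling, the highest transcript in place of the gene sum, the libraries in the fit, a replicate block, and leaving libraries out.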

Additional observations from a re-analysis of the deposited data

How the results depend on the processing

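Counts of called genes moved with the settings. The log2 differences of the members, and of their mean, moved by less than the pooled SD within groups wherever they were computed anew. That SD (2.17 for the mean) is wide because of the same few high libraries, so staying within it does not show that the differences are stable. They were not computed anew for the changed filters on low values, the replicate block or the fit of only the groups compared. Some differences changed sign, as given above. Other changes of sign were close to 0 or in Myh4. Myh4 in CFA6D against Saline was 0.32 without CFA6D 4 and 0.30 without CFA6D 5, and in CFA6D against CFA3D Tnni2 was −0.004 without CFA3D 1, and Myh2 was −0.10 without CFA3D 2 and 0 with its highest transcript. With no fold minimum, 717, 1782 and 1193 gene sums were called in CFA3D against Saline, CFA6D against Saline and CFA6D against CFA3D (from 55, 96 and 126), and 4 and 2 other muscle genes in the latter comparisons. With a pseudocount of 1 the counts were 9, 21 and 38, and 0 other muscle genes in each. With a mean of at least 1 FPKM they were 18, 39 and 62, with 2 and 1 other muscle genes in the differences from Saline. With the highest transcript they were 146, 202 and 205, with 4, 0 and 2 other muscle genes. Quantile normalization gave 3 other muscle genes in CFA3D against Saline and 0 in CFA6D against CFA3D, no filter gave 2 in the latter, and a fit of only the groups compared gave 15, 1 and 2. The cause was not tested.

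Replicate numbers are shared by Saline and CFA3D alone, and the numbers did not pair the libraries (r of the deviations of same-numbered libraries 0.09, −0.08 and 0.03). With the replicate number as a block, 116 gene sums and 24 other muscle genes were called in CFA3D against Saline.

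Leaving out 1 library gave 46 to 108, 86 to 240 and 103 to 274 gene sums, and 1 to 27, 1 to 18 and 0 to 2 other muscle genes. Without both Saline 2 and CFA6D 6, an alternative chosen after seeing the data, 109 and 178 gene sums were called in the differences from Saline, with 4, 8 and 2 other muscle genes, and the mean member difference was −1.42, −1.95 and −0.54. Depth limits the members in the low libraries, where a gene can rest on fewer than 3 read pairs.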
